A study of Homo sapiens with 6 samples.

Results

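The 39 genes described here encode the proteins that license, start and carry out DNA replication, with the cyclin E and E2F genes that act at the entry to S phase. They are a list of named genes, found by symbol, and all 39 symbols stood among the 57133 rows of the count table. This list and the other gene lists below were chosen with earlier results of these data known. The shares called within them are therefore descriptive and may not be independent of the values. The RNA came from T98G, an established line from a human glioblastoma, after knockout of CBX8 by CRISPR-Cas9. CBX8 is a chromobox subunit of PRC1, a complex that represses transcription. The CBX8 KO cells carried the empty doxycycline-inducible lentiviral vector in 3 libraries (CBX8 KO) and the same vector with V5-tagged WT CBX8 in 3 libraries (WT CBX8 re-expression). All 6 libraries therefore share the knockout, the rtTA transactivator and doxycycline at 1 μg/ml for 72 h. The genotype label of the re-expression libraries reads wild type, while their titles and the study's methods describe CBX8 put back into the KO line, which is the reading taken here. The methods do not say whether the KO line is a single clone or whether the replicate libraries were grown as separate cultures, so n counts libraries and p-values measure the spread between libraries. Each condition is also its own transduced and selected line, so the effect of CBX8 and a difference between the lines cannot be told apart.

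Before S phase, origins of replication are licensed when ORC, CDC6 and CDT1 load the MCM2 to MCM7 helicase onto DNA. The helicase is then activated by CDC45, GINS and MCM10, and the polymerases follow with PCNA, the sliding clamp that RFC loads. Cyclin E with its kinase partner phosphorylates RB, which frees E2F factors, and E2F factors activate many of these genes, so their mRNA levels are widely read as a sign of proliferation. Total counts lay between 7950190 and 8659796 per library. CBX8 itself was counted 96, 104 and 83 times in the CBX8 KO libraries and 30372, 31408 and 27791 times upon re-expression, so the labels match the targeted gene, with vector and endogenous transcripts counted together. Of markers for this line, VIM and CD44 had at least 20126 counts in every library. GFAP and OLIG2 had at most 38, NES had at most 4, and SOX2 and S100B had 0 in all 6. Markers of leukocytes, epithelium, endothelium and liver (PTPRC, EPCAM, PECAM1 and ALB) had at most 4 counts in any library.

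Upon WT CBX8 re-expression, 8 of the 39 replication genes were lower and 0 were higher at an adjusted p under 0.05. The 8 were RFC3, GINS3, ORC1, PCNA, MCM4, MCM7, CDC6 and MCM3, and their falls were small, between 10.0% for MCM3 and 20.3% for RFC3. That is 20.5% of the list called lower, where 6.63% of all 14461 tested genes were called lower and 6.23% higher. These shares are not matched for expression. The median standard error of the log2 fold change was 0.062 for the members and 0.10 over all tested genes. Small changes were therefore easier to call among the members. The median log2 fold change of the 39 genes was -0.043, beside 0.0049 over all tested genes. The sign was negative for 25 members and positive for 14, beside 7064 negative and 7397 positive among all tested genes. With library sizes alone, the median of the 39 genes was 0.012, where that of all tested genes was 0.060. The test was edgeR's quasi-likelihood test on the deposited counts, with Benjamini-Hochberg adjustment over all tested genes. At an unadjusted p under 0.05, 10 members were lower and 0 higher, where 12.7% of all tested genes were lower and 12.7% higher. DESeq2 called 6 members lower and 0 higher (4.81% and 3.47% of all tested genes), and limma voom 8 and 0 (6.57% and 6.04%). The conditions did not overlap for 12 members with re-expression below CBX8 KO and for 0 with it above, where 14.4% of all tested genes lay below and 14.4% above. The 12 are the 8 called genes with MCM5, MCM6, POLA1 and SLBP. In bulk RNA, fewer cells in S phase and less of these mRNAs per cell cannot be told apart.

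**Figure D1:**
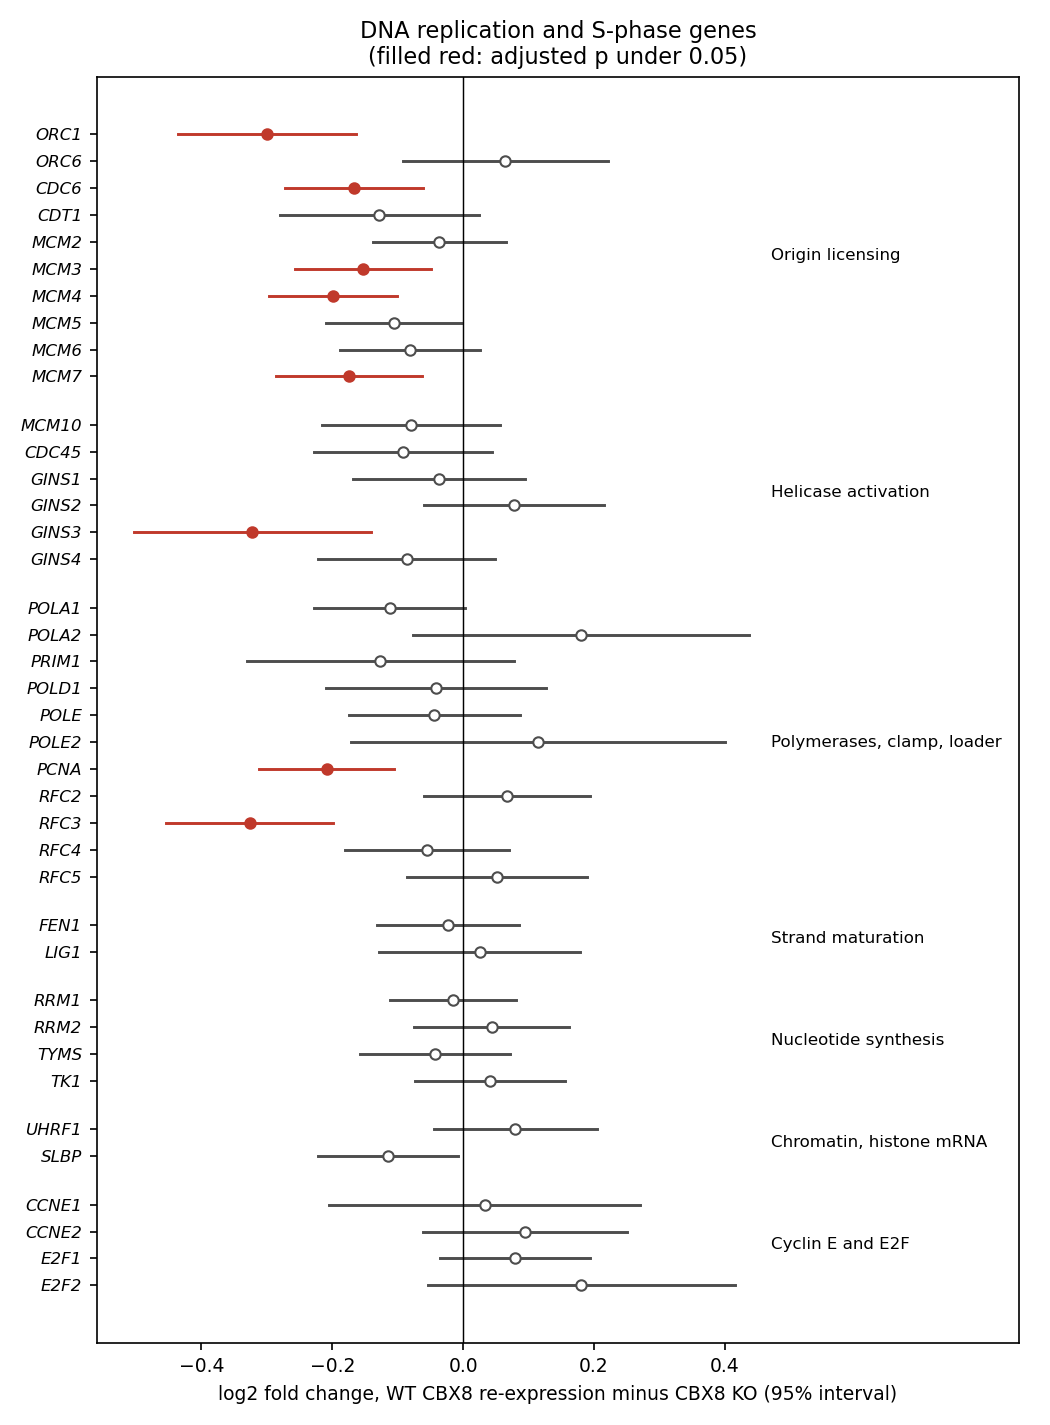
log2 fold change of each of the 39 replication and S-phase genes (WT CBX8 re-expression minus CBX8 KO, x axis) with its 95% interval from edgeR, ordered by role (y axis). The 8 filled red points are the genes with an adjusted p under 0.05, all to the left of 0 between -0.33 and -0.15, and 5 of them are origin licensing genes.

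The promoters of the members were searched for the sequence that E2F factors are known to bind. RefSeq promoter windows (GRCh38.p14, 250 bases before to 50 after the start) were matched by symbol for 35 of the 39 genes. CCNE2, GINS4, MCM4 and MCM5 had none. Shown are the windows of the 3 lowest fold changes, of MCM7, the highest licensing gene per kilobase, and of E2F1, itself an E2F gene and not called. Each is read 5′ to 3′ on the strand of the gene, and capitals mark an E2F word (TTTCCCGC, TTTCGCGC, TTTGCCGC or TTTGGCGC) on either strand.
RFC3 (chr13:33817899-33818198, plus strand): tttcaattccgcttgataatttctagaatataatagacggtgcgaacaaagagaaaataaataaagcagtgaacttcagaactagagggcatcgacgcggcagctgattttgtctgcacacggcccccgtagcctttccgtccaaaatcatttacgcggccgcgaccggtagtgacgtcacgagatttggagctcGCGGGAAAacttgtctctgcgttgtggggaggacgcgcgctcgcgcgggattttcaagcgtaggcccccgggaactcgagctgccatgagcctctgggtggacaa
GINS3 (chr16:58392221-58392520, plus strand): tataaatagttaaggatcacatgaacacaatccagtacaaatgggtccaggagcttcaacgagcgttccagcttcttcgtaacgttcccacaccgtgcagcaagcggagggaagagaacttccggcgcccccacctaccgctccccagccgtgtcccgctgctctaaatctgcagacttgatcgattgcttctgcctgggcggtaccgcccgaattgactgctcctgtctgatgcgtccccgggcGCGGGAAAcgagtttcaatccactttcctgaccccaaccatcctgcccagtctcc
ORC1 (chr1:52404374-52404673, minus strand): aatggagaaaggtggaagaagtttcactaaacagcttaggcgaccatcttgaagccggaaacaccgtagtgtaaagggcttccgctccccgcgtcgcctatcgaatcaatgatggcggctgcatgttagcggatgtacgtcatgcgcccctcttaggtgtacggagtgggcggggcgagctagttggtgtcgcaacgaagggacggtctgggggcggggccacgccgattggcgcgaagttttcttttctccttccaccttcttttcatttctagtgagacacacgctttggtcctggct
MCM7 (chr7:100101348-100101647, minus strand): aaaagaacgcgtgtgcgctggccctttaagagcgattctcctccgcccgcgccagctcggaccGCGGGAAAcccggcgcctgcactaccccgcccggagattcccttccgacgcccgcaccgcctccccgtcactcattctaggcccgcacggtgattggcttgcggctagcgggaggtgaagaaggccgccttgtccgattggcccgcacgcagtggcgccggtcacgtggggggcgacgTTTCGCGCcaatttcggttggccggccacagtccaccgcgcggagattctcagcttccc
E2F1 (chr20:33686336-33686635, minus strand): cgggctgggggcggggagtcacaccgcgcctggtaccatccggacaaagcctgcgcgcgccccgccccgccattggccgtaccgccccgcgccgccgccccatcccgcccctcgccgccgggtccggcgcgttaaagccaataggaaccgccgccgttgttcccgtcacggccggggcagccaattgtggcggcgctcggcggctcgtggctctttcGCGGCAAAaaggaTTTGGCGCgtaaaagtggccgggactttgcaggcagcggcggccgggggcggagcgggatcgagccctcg
RFC3 and GINS3 each hold 1 E2F word, starting 55 and 5 bases before the RefSeq start, MCM7 holds 2 at 187 and 9 bases before it, and E2F1 holds 2 at 33 and 20 bases before it. ORC1 holds none of these words in this window. The RefSeq starts of RFC3, GINS3 and MCM7 lie inside the longer spans that GENCODE gives these genes, so their words lie within those spans, while those of ORC1 and E2F1 match the GENCODE ends. An E2F word stood in 20 of the 35 members' windows (57.1%), against 3.33% of all 27305 RefSeq windows and 5.50% of the 9726 windows of tested genes. Among the members it stood in 6 of 7 that were lower and in 14 of 28 that were not called, a difference that was not tested. The CCAAT box, which NF-Y binds, stood in 54.3% of the members' windows and 36.8% of those of tested genes. The sequence TTTGAA, known from promoters of G2 and mitosis genes, stood in 1 of 35 members' windows (RRM1), against 9.61% of those of tested genes. A match describes letters, not binding, and no binding of E2F or CBX8 was measured in these libraries.

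The counts were deep for most members. All 39 passed the filter on low counts, 38 had a mean of over 100 counts per library, and single values ran from 75 counts (POLE2, CBX8 KO replicate 3) to 3035 (PCNA, CBX8 KO replicate 2). CPM is a count relative to its library size after TMM scaling. The median coefficient of variation of a member between libraries was 5.02% in CBX8 KO and 4.10% upon re-expression. A fall of about 10.0% was therefore larger than the usual spread. Some calls were still lost when a library was left out, as given below. Those fits have fewer libraries, so a lost call does not show that the call rested on the library left out.

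The origin licensing genes held most of the calls, with 5 of 10 lower and 0 higher and a median log2 fold change of -0.14. Over all tested genes, 6.63% were called lower and 6.23% higher. Those shares are not matched for expression, and the median standard error was 0.052 for the licensing genes and 0.10 over all tested genes. With library sizes alone, CDC6, MCM3 and MCM7 lost their calls. Gene positions are those of GENCODE 44 on hg38. ORC1 (chromosome 1 from 52372829 to 52404423), the largest subunit of the origin recognition complex, had 67.1, 77.9 and 79.5 CPM in CBX8 KO replicates 1 to 3 and 60.8, 61.5 and 60.2 CPM upon re-expression. The re-expression libraries lay close together and under every CBX8 KO library. Mean ORC1 went from 74.9 ± 6.72 CPM down to 60.8 ± 0.61 CPM (SD, n = 3 each), which is -0.30 on the log2 scale (standard error, SE, 0.066, adjusted p = 0.0026 by edgeR). ORC6, another subunit of the complex, had a log2 fold change of 0.064 with a 95% interval from -0.092 to 0.22 and was not called. CDC6 (chromosome 17 from 40287879 to 40304657), the ATPase that joins ORC to load the helicase, had 166, 153 and 159 CPM in CBX8 KO and 139, 142 and 145 CPM upon re-expression. The conditions did not overlap, and CDC6 fell by 0.17 on the log2 scale (SE 0.051, adjusted p = 0.029 by edgeR). CDT1, which loads the helicase with CDC6, had a log2 fold change of -0.13 with an interval from -0.28 to 0.024 and was not called.

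The 6 subunits of the MCM helicase all had negative log2 fold changes, except that MCM2 was at 0.019 with library sizes alone. Of all 14461 tested genes, 7064 had a negative log2 fold change. Among the 6 subunits, 3 were called lower, where 6.63% of all tested genes were. MCM4 (chromosome 8 from 47960185 to 47978160) had 336, 347 and 333 CPM in CBX8 KO and 299.96, 299 and 286 CPM upon re-expression. The gap between the conditions was wider than the spread within either. MCM4 fell by 0.20 on the log2 scale (SE 0.047, adjusted p = 0.0050 by edgeR). MCM7 (chromosome 7 from 100092233 to 100101940) had 252, 278 and 288 CPM in CBX8 KO and 245, 252 and 228 CPM upon re-expression. CBX8 KO replicate 1 and re-expression replicate 2 nearly touched, at 252.0 and 251.6 CPM. MCM7 fell by 0.17 on the log2 scale (SE 0.054, adjusted p = 0.032 by edgeR). MCM3 (chromosome 6 from 52264014 to 52284881) had 240.4, 259 and 269.9 CPM in CBX8 KO and 229.9, 234 and 228 CPM upon re-expression. Its 3 re-expression libraries were tight, and MCM3 fell by 0.15 on the log2 scale (SE 0.051, adjusted p = 0.045 by edgeR). MCM5 had a log2 fold change of -0.11, MCM6 of -0.081 and MCM2 of -0.037, with edgeR adjusted p-values of 0.18, 0.35 and 0.70. The interval of MCM5 ran from -0.21 to -0.0029 and that of MCM2 from -0.14 to 0.065. Whether the subunits differed from each other in their change was not tested.

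Although the 6 proteins assemble in equal number, the counts of their mRNAs per kilobase were not equal. In CPM per kilobase of the canonical transcript, the order in CBX8 KO was MCM7 (111 ± 7.58, SD, n = 3), MCM3 (83.6 ± 4.86), MCM4 (83.4 ± 1.91), MCM5 (59.2 ± 1.83), MCM2 (46.9 ± 1.41) and MCM6 (30.7 ± 0.76). MCM3 and MCM4 did not differ beyond their spread. Upon re-expression the order of the means was the same, from 97.95 ± 4.86 for MCM7 to 29.0 ± 0.46 for MCM6 (SD, n = 3 each). The order depends on the length used, and the annotation behind the counts is not given. For MCM7, all GENCODE exons cover 4960 bases, against 2467 in the canonical transcript.

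**Figure D2:**
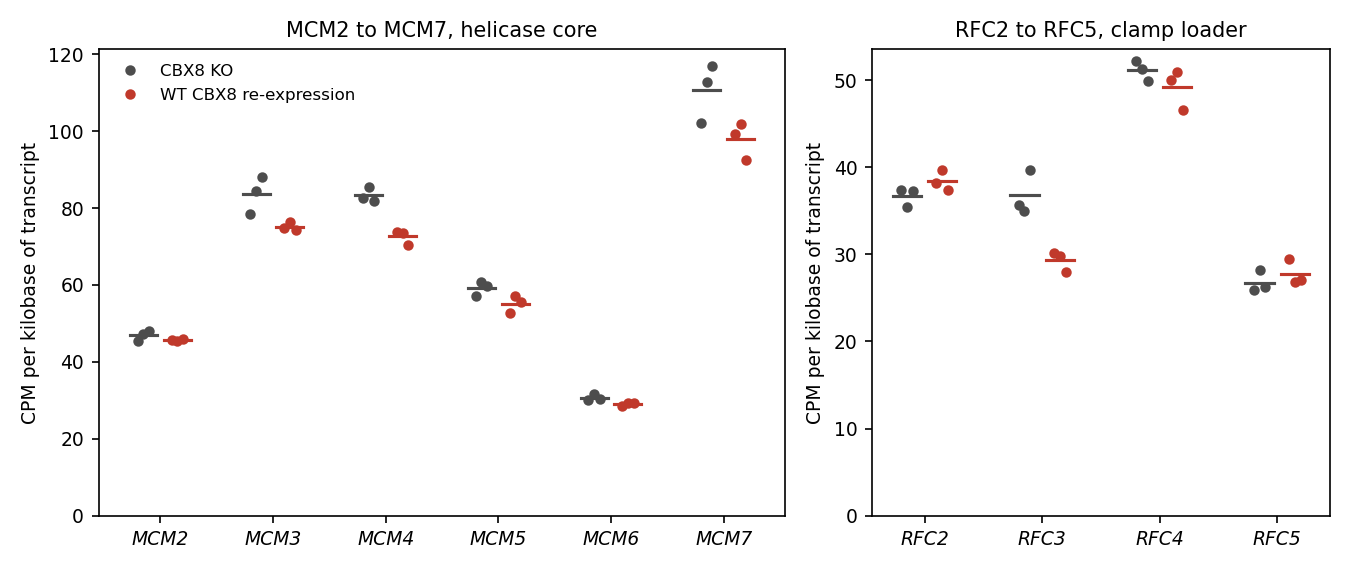
CPM per kilobase of canonical transcript (y axis) in each library for the MCM2 to MCM7 helicase subunits (left) and the RFC2 to RFC5 clamp loader subunits (right). Points are libraries, lines are means, grey is CBX8 KO and red is WT CBX8 re-expression. The red points lie wholly below the grey ones for every MCM gene except MCM2, and among the loader genes for RFC3, at 29.3 against 36.8.

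Of the 6 genes of helicase activation, 1 was called (16.7% lower, beside 6.63% of all tested genes). GINS3 (chromosome 16 from 58295080 to 58406147), a subunit of the GINS complex that binds the loaded helicase, had 43.3, 36.4 and 38.8 CPM in CBX8 KO and 30.8, 33.7 and 30.1 CPM upon re-expression. The conditions did not overlap, though the counts were lower than for the MCM genes, at 253 to 343 per library. GINS3 fell by 0.32 on the log2 scale (SE 0.088, adjusted p = 0.014 by edgeR). The other GINS subunits were not called, with log2 fold changes of -0.037 for GINS1, 0.078 for GINS2 and -0.086 for GINS4. CDC45, which completes the active helicase and was the highest of this group per kilobase, had 55.5, 60.7 and 59.6 CPM in CBX8 KO and 56.8, 55.6 and 52.6 CPM upon re-expression. These libraries overlapped, and its log2 fold change was -0.092 with an interval from -0.23 to 0.044. MCM10 had a log2 fold change of -0.079 (edgeR adjusted p = 0.50).

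Among the 11 genes of the polymerases, the clamp and its loader, 2 were called (18.2% lower, beside 6.63% of all tested genes). PCNA (chromosome 20 from 5114953 to 5126626) was the highest of the 39 genes per kilobase, at 282 ± 14.9 in CBX8 KO and 244 ± 7.62 upon re-expression (SD, n = 3 each). It had 341, 361 and 379 CPM in CBX8 KO and 312, 321 and 302 CPM upon re-expression, so the highest re-expression library lay under the lowest CBX8 KO library. PCNA fell by 0.21 on the log2 scale (SE 0.050, adjusted p = 0.0055 by edgeR). RFC3 (chromosome 13 from 33818069 to 33966558), a subunit of the clamp loader, had 82.2, 80.8 and 91.5 CPM in CBX8 KO and 69.5, 68.9 and 64.4 CPM upon re-expression. It had the lowest fold change of the list, -0.33 on the log2 scale (SE 0.062, 95% interval from -0.45 to -0.20, adjusted p = 6e-04 by edgeR). The loader subunits RFC2, RFC4 and RFC5 had log2 fold changes of 0.066, -0.055 and 0.052, and none of them was called. Their intervals lay between -0.18 and 0.19, and the difference between RFC3 and these subunits was not itself tested.

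The polymerase genes were not called. POLA1, POLA2 and PRIM1, which encode subunits of the polymerase that makes the primers, had log2 fold changes of -0.11, 0.18 and -0.13. POLD1, the catalytic subunit of the lagging strand polymerase, had -0.041, and POLE and POLE2 of the leading strand polymerase had -0.044 and 0.11. POLA2 and POLE2 had the widest intervals of this group, from -0.076 to 0.44 and from -0.17 to 0.40, and few counts, between 75 and 124 per library.

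**Figure D3:**
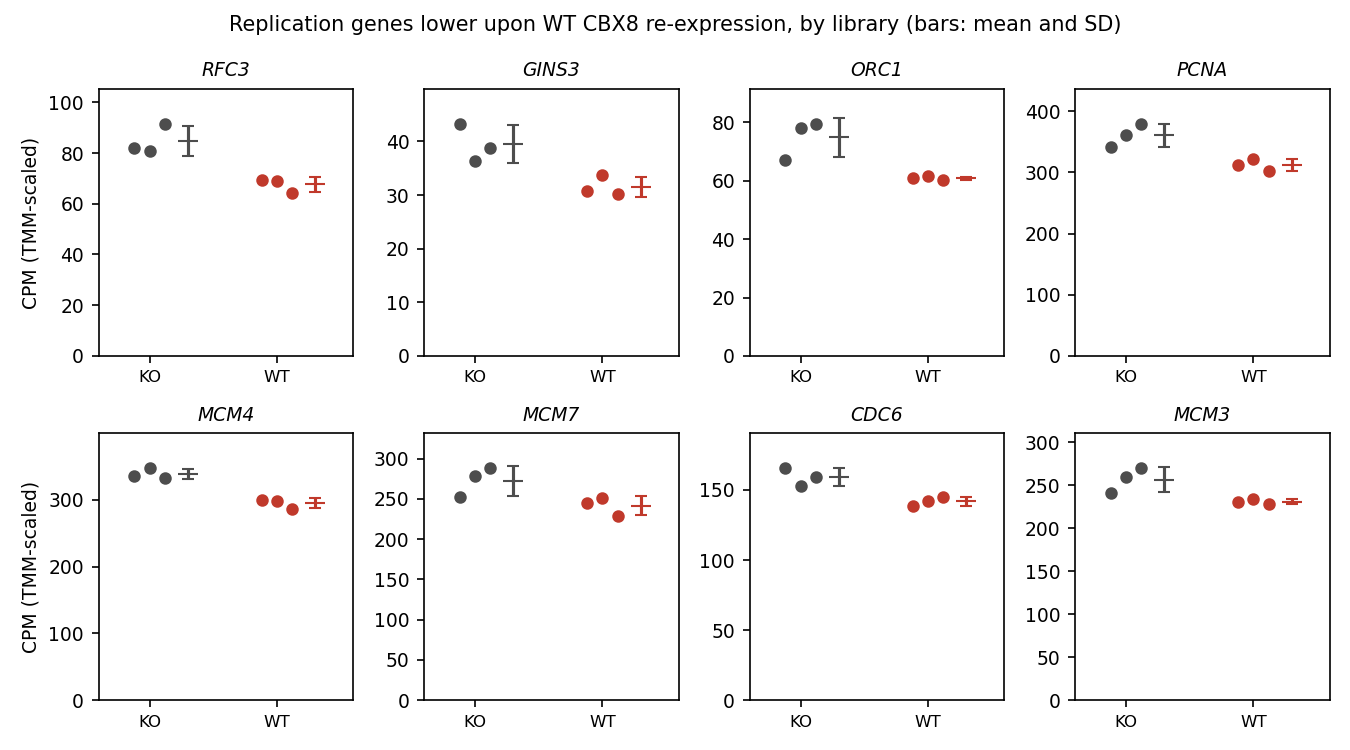
CPM (y axis, from 0) in each library for the 8 replication genes with an adjusted p under 0.05, with CBX8 KO (KO, grey) and WT CBX8 re-expression (WT, red) on the x axis, and the mean and SD of 3 libraries beside the points. No panel shows an overlap between conditions, and the panel of MCM7 comes nearest to one, at 252.0 against 251.6.

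In the groups of strand maturation, nucleotide synthesis, and chromatin and histone mRNA, 0 genes were called by edgeR in either direction. SLBP alone was lower at an unadjusted p under 0.05 by edgeR, as were 12.7% of all tested genes. Calls were made for 6.63% of all tested genes as lower and 6.23% as higher. In groups this small, 0 calls do not set them apart. FEN1, the nuclease that trims Okazaki fragments, had 138, 143 and 142 CPM in CBX8 KO and 132, 147 and 138 CPM upon re-expression, and LIG1, the ligase that joins them, had a log2 fold change of 0.025. RRM1, the large subunit of ribonucleotide reductase, had 345, 355 and 338 CPM in CBX8 KO and 344, 342 and 343 CPM upon re-expression. All 3 re-expression libraries lay within the range of the CBX8 KO libraries. Its log2 fold change was -0.015 with an interval from -0.11 to 0.081, which leaves out a change of the size seen for MCM4. RRM2, the small subunit, had 0.044. The thymidylate enzymes TYMS and TK1 had -0.043 and 0.041. UHRF1, which helps copy DNA methylation onto new strands, had 0.079. SLBP, which binds the stem-loop of histone mRNAs, had 127, 123 and 131 CPM in CBX8 KO and 117, 114 and 121 CPM upon re-expression. These did not overlap, yet SLBP was not called, with a log2 fold change of -0.11 and an edgeR adjusted p of 0.16.

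Of the 4 genes of cyclin E and E2F, 0 were called by edgeR, also at an unadjusted p under 0.05. With 6.63% of all tested genes called lower and 6.23% higher, 0 of 4 does not set this group apart. E2F1, an activator of S-phase genes, had 93.1, 99.7 and 102 CPM in CBX8 KO and 107, 104 and 100.1 CPM upon re-expression, which overlap. Its log2 fold change was 0.079 (95% interval from -0.036 to 0.19, edgeR adjusted p = 0.41). E2F2 had a log2 fold change of 0.18, CCNE1 of 0.033 and CCNE2 of 0.095, so that all 4 were positive in sign, although E2F1 was at -0.0245 with the GC and length correction and CCNE1 at -0.117 without re-expression replicate 3. Over the 31 members that were not called, 24 had an interval wholly within 0.25 of 0 on the log2 scale. The other 7, CDT1, POLA2, PRIM1, POLE2, CCNE1, CCNE2 and E2F2, reached past it, and the outermost bounds were -0.33 (PRIM1) and 0.44 (POLA2). The margin of 0.25 is wider than the log2 falls of the called genes PCNA, MCM4, MCM7, CDC6 and MCM3. An interval within it need not leave out a fall of that size.

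The scaling of the libraries changed some of the calls. The 39 genes took between 0.412% and 0.437% of the counts in CBX8 KO libraries and between 0.411% and 0.423% upon re-expression, which overlap. After TMM scaling their summed CPM was 4252 to 4445 in CBX8 KO and 4078 to 4182 upon re-expression, which do not. TMM moved the re-expression libraries by 0.056 on the log2 scale relative to CBX8 KO. With library sizes alone, 5 members (RFC3, GINS3, ORC1, PCNA and MCM4) were called lower and 0 higher, while 4.09% of all tested genes were called lower and 9.68% higher. CDC6 (adjusted p = 0.15), MCM3 (0.23) and MCM7 (0.17) then lost their calls. With each library corrected for GC content and transcript length, 11 members were called lower, the 8 with MCM5, CDT1 and POLE (adjusted p = 0.0062, 0.016 and 0.047), and 0 higher, while 11.6% of the 12692 genes with both properties were called lower and 6.07% higher.

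RFC3, ORC1, PCNA and MCM4 kept their calls whichever of the 6 libraries was left out, and the other 4 called genes did not. GINS3 lost its call without CBX8 KO replicate 1 (adjusted p = 0.094) and without re-expression replicate 3 (0.054). MCM7 lost it without CBX8 KO replicate 2 (0.13), CBX8 KO replicate 3 (0.14) or re-expression replicate 3 (0.14). CDC6 lost it without CBX8 KO replicates 1 (0.10) or 3 (0.054), or re-expression replicates 1 (0.096) or 2 (0.10). MCM3 kept it only without CBX8 KO replicate 1, and its adjusted p lay from 0.09 to 0.18 when any other was left out. With CBX8 KO replicate 3 left out, 5 members were called lower, beside 5.77% of all tested genes. With re-expression replicate 3 left out, 5 were called lower, beside 5.71%. All libraries gave 6.63% of all tested genes. In DESeq2, 6 members were called lower, beside 4.81% of all tested genes, and CDC6 (adjusted p = 0.064) and MCM3 (0.067) were not.

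Of 43 other genes of DNA replication, 3 were called lower (6.98%, beside 6.63% of all tested genes) and 0 higher, with a median log2 fold change of -0.069, beside 0.0049 over all tested genes. The sign was negative for 36 and positive for 7, beside 7064 negative and 7397 positive among all tested genes. The conditions did not overlap for 15 with re-expression below CBX8 KO and for 2 above, where 14.4% of all tested genes lay each way. EXO1, a nuclease of replication and repair, had 755, 770 and 663 counts in CBX8 KO and 646, 655 and 620 upon re-expression, a change of -0.27 on the log2 scale (SE 0.058, adjusted p = 0.0018 by edgeR). POLD3, an accessory subunit of the polymerase that POLD1 belongs to, had 650, 694 and 681 counts in CBX8 KO and 618, 627 and 585 upon re-expression, a log2 fold change of -0.23 (edgeR adjusted p = 0.0063). DBF4, which activates the kinase CDC7 at origins, had 863, 892 and 809 counts in CBX8 KO and 807, 820 and 735 upon re-expression, a log2 fold change of -0.21 (edgeR adjusted p = 0.012). DBF4 lost its call without re-expression replicate 3 (adjusted p = 0.064) and with library sizes alone (log2 fold change -0.15, adjusted p = 0.073). POLD4 gained a call as higher without re-expression replicate 3 (log2 fold change 0.52, adjusted p = 0.046, against 0.41 and 0.096 with all libraries).

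Genes expressed in G2 and mitosis also follow the share of dividing cells. Of 24 tested, 0 were lower and 0 higher by edgeR (6.63% and 6.23% of all tested genes), DESeq2 (4.81% and 3.47%) and limma voom (6.57% and 6.04%). At these shares, 0 of 24 does not set the G2/M genes apart from all tested genes. Their median log2 fold change was 0.0076. At an unadjusted p under 0.05 by edgeR, 4 were lower and 1 higher (12.7% of all tested genes in each direction). The 4 lower were CDK1, CCNB1, CCNB2 and FOXM1, and the 1 higher was MKI67. The conditions did not overlap for 5 of the 24 with re-expression below CBX8 KO and for 2 above, where 14.4% of all tested genes lay each way. MKI67, the common proliferation marker, had 3952, 3731 and 3592 counts in CBX8 KO and 3856, 4709 and 4542 upon re-expression. Its libraries overlapped, and its log2 fold change was 0.13 with a 95% interval from 0.0052 to 0.25 (edgeR adjusted p = 0.18). MKI67 was called higher without re-expression replicate 1 (0.205, adjusted p = 0.013) and with library sizes alone (0.18, adjusted p = 0.030). The intervals of all 24 genes lay between -0.28 and 0.25. CDK1, the mitotic kinase, was called lower without re-expression replicate 1 (log2 fold change -0.21, adjusted p = 0.013) and with no filter on low counts (-0.17, adjusted p = 0.029), against -0.15 and 0.067 otherwise.

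Of the 8 tested genes of the cell cycle inhibitors and the RB family, CDKN1A was called higher (12.5%, beside 6.23% of all tested genes). The other 7 were not called, so 0 were called lower, beside 6.63% of all tested genes. CDKN1A encodes p21, an inhibitor of cyclin-dependent kinases that also binds PCNA. It had 120, 113 and 127 counts in CBX8 KO and 239, 246 and 232 upon re-expression, so every re-expression library lay well above every CBX8 KO library. Mean CDKN1A went from 14.9 ± 1.42 CPM up to 27.9 ± 0.28 CPM (SD, n = 3 each), which is 0.90 on the log2 scale (SE 0.10, adjusted p = 3.6e-07 by edgeR). It stayed between 0.83 and 0.97 over the 18 alternatives. Its part in the lower replication genes was not tested. CDKN2A was near the limit of detection with 4 to 16 counts per library, CDKN2C had 0 counts in every library, and CDKN1C had at most 1. CDKN2D had a log2 fold change of 0.58 (edgeR adjusted p = 0.080) and was called without CBX8 KO replicate 3 (0.84, adjusted p = 0.020).

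Most histone genes of the large clusters are transcribed in S phase, and most of their mRNAs end in a stem-loop in place of a poly(A) tail, so libraries made from poly(A) RNA hold few of them. Of 90 symbols of the histone clusters in the table, pseudogenes included, 19 passed the filter, among them HIST2H2BC and HIST2H2BD, which are pseudogenes. Of the 19, 3 were called lower (15.8%, beside 6.63% of all tested genes) and 0 higher, and the median log2 fold change was -0.21, beside 0.0049 over all tested genes. HIST1H1C, a linker histone, fell from 187, 203 and 182 counts in CBX8 KO to 155, 129 and 123 upon re-expression, a log2 fold change of -0.58 (edgeR adjusted p = 0.00042). HIST1H2AC fell by 0.59 on the log2 scale (edgeR adjusted p = 0.00065). HIST1H2BK had a log2 fold change of -0.39 (edgeR adjusted p = 0.038). It kept its call only in the fit without re-expression replicate 1 of the 6 that left out a library, with adjusted p-values between 0.054 and 0.13 in the others. HIST1H2BK also lost its call in DESeq2 (adjusted p = 0.18) and in edgeR with library sizes alone (0.079). Whether the reads of these 3 genes came from cells in S phase was not measured. Near-identical histone genes could have shared reads, so these counts are uncertain.

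**Figure D4:**
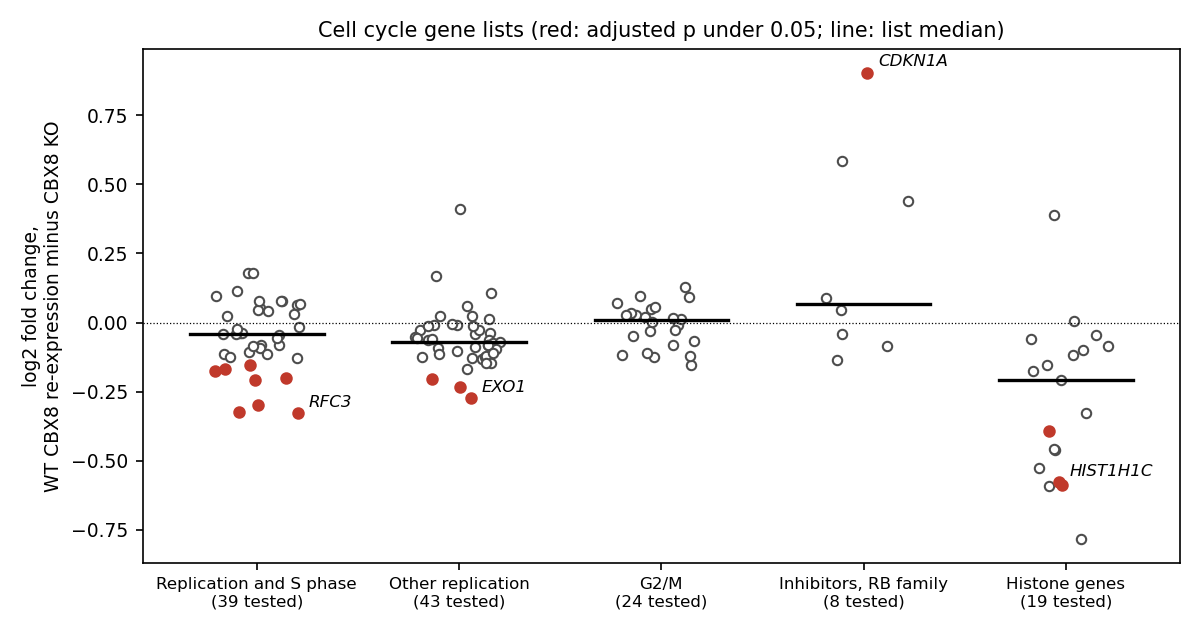
log2 fold change (y axis) of every tested gene in 5 lists (x axis), with red points for genes with an adjusted p under 0.05 and a line at each list's median. Red points lie below 0 for the replication, other replication and histone genes, none is seen for G2/M genes, and the only one above 0 is CDKN1A, at 0.90.

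Some counts could hold reads of other genes, because exons overlap. The strand setting of the counting is not given in the sources used here. Exons of 17 members overlap exons of other genes in GENCODE 44. Among the 8 called genes there were 2, MCM7 with 7.90% of its exon bases under AP4M1 and GINS3 with 10.9% under an unnamed gene, both on the opposite strand. TYMS shares 39.9% with ENOSF1 and CCNE2 37.05% with INTS8, both also on the opposite strand. MCM2 shares 23.6% and GINS4 21.0% with unnamed genes on the opposite strand. Unnamed genes on the same strand, which no strand setting separates, cover 16.8% of POLA2, 10.9% of PRIM1 and 8.63% of POLD1. A second match elsewhere in hg38 was found for 5 members, covering 54.4% of the PCNA transcript, 57.6% of RRM2, 69.6% of UHRF1, 73.8% of FEN1 and 46.4% of PRIM1, so reads of these genes could have been lost or shared.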

How the data were processed

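Poly(A) RNA of 6 T98G libraries was sequenced as paired-end reads on a BGISEQ instrument. Per the labels and the study's methods, the authors used Trimmomatic for trimming and HISAT2 for alignment to hg38. The counting program, annotation and strand setting are not given in the sources used here. They deposited 1 table of raw counts per gene symbol (57133 symbols, of which 29123 had no count), which was used as deposited.

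Libraries were grouped by title, 3 per condition. Counts were filtered with filterByExpr, scaled by TMM and tested with edgeR 4.0.16 (R 4.3.3), by glmQLFit and glmQLFTest with condition as the only term and Benjamini-Hochberg adjustment over 14461 genes, at a threshold of 0.05. The biological coefficient of variation was 4.7%. Per-gene intervals are 95% intervals of the fit. The procedure was tested on simulated data. The 18 alternatives were other scalings and filters, DESeq2 1.42.0, limma 3.58.1 with voom, a stricter threshold, a minimum fold of 1.5, a replicate block, a correction for GC content and length, and leaving out each library. Replicate numbers did not pair the libraries. Pairs of libraries of a condition differed by more than sampling noise (chi-square per degree of freedom 2.06 to 3.09) and were each counted as a library, which does not show separate cultures.

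The members and the other lists were chosen with earlier results of these data known. Named with values in every library were the called members and the highest member of each role per kilobase. Of the other lists, called genes were named, at most 3 lowest and 3 highest a list, with MKI67 and CDKN1A. POLD4, CDK1, CCNB1, CCNB2, FOXM1, CDKN1C, CDKN2A, CDKN2C, CDKN2D, HIST2H2BC and HIST2H2BD fall outside this rule and were chosen after their values were seen. Line markers were VIM, NES, CD44, SOX2, GFAP, OLIG2 and S100B. Lengths and positions came from GENCODE 44, second genomic matches from minimap2 and promoters from RefSeq. Lengths and GC content were found for 87.8% of tested genes and for all 39 members.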

Additional observations from a re-analysis of the deposited data

How the results depend on the processing

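Each of the 39 genes was compared under 18 alternatives. These gave 638 results with the same direction and call, 35 that lost a call, 3 that gained one and 26 that changed sign. No member was called higher under any of them. The stricter threshold and the minimum fold reused the main fit, so under them no sign could change and no call could be gained. Of the 39 genes, 8 were lower with all settings as reported, 5 with library sizes alone, 4 at an adjusted p under 0.01 (ORC1, MCM4, RFC3 and PCNA) and 0 with a minimum fold of 1.5. Leaving out a library gave 5 to 6. Over all genes, 959 lower and 901 higher became 592 and 1400 with library sizes alone, 569 and 489 at an adjusted p under 0.01, 144 and 284 with a minimum fold of 1.5, 1478 and 771 with the GC and length correction, 695 and 502 with DESeq2, and 635 to 851 and 593 to 792 without a library, lowest without re-expression replicate 2. Among other replication genes, 3 lower became 0 with a minimum fold of 1.5 and 6 with the GC and length correction, and 0 higher became 1 with library sizes alone and 0 to 1 without a library. Among G2/M genes, 0 lower became 1 with no filter, 1 with the GC and length correction and 0 to 1 without a library, and 0 higher became 2 with library sizes alone, 1 with the correction and 0 to 1 without a library. Inhibitors called higher were 1 to 2 without a library, and histone genes called lower were 1 with a minimum fold of 1.5. The cause of these changes was not tested.

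None of the log2 fold changes that changed sign was called under either setting. With library sizes alone they were MCM2 (0.019), GINS1 (0.018), POLD1 (0.014), POLE (0.011), RFC4 (6.9e-05), FEN1 (0.032), RRM1 (0.040) and TYMS (0.012). With the GC and length correction they were LIG1 (-0.068), RRM1 (0.014), TK1 (-0.037) and E2F1 (-0.0245). Without a library the ranges were -0.0838 to 0.017 (GINS1), -0.00194 to 0.135 (GINS2), -0.124 to 0.0142 (POLD1), -0.10 to 0.0432 (POLE), -0.037 to 0.19 (POLE2), -0.0637 to 0.0115 (FEN1), -0.0633 to 0.0859 (LIG1), -0.0326 to 0.00276 (RRM1), -0.00936 to 0.111 (RRM2), -0.11 to 0.000575 (TYMS), -0.0227 to 0.0836 (TK1) and -0.117 to 0.127 (CCNE1).

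The replicate block gave 5 members lower, without CDC6 (adjusted p = 0.067), MCM3 (0.09) and MCM7 (0.068), and 766 lower and 739 higher over all genes. Deviations from the condition means correlated at -0.13, -0.11 and -0.11 (over 10995 genes) between same-numbered libraries, so the numbers do not pair them.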
